A study of Drosophila melanogaster with 3 samples.

Results

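The small nuclear RNA (snRNA) genes encode the RNA cores of the splicing machinery and a few RNAs related to them. Taken as every gene with the snRNA biotype in the Ensembl dm6 annotation of the chromosome arms X, 2L, 2R, 3L, 3R and 4, they numbered 32 of 18164 annotated genes. The position of lilli was mapped at each of them, as peaks with a summit within 500 bp of the transcription start site (TSS). Of the 32 genes, 10 had a peak in the optimal list, the set of 6970 peaks that passed the authors' test of reproducibility, and another 8 had a weaker peak in the pooled list. The share with an optimal peak, 31.25%, was close to the 31.3% of protein-coding genes and the 26.2% of all genes that are not snRNA genes. With any pooled peak it was 56.25%, against 55% of protein-coding genes.

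The study was a chromatin immunoprecipitation with sequencing (ChIP-seq) of lilli, the single fly protein of the AF4/FMR2 family. Lilli carried eGFP at its C terminus in a transgenic fly line and was precipitated with an antibody against GFP from sonicated chromatin in fragments of 200 to 800 bp. There was 1 group: whole embryos of 0 to 24 h of age, males and females together, in 3 samples labelled as biological replicates. All 3 samples carry the same fusion, the promoter that drives it is not given in the sources used here, and no untagged or input library was analysed here, so binding was read against other classes of genes.

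The snRNAs U1, U2, U4, U5 and U6 form the major spliceosome, which removes most introns, while U11, U12, U4atac and U6atac replace their counterparts in the minor spliceosome. U7 acts in the 3' end formation of histone mRNAs and 7SK RNA holds the elongation kinase P-TEFb inactive, so neither belongs to the spliceosome although both carry the biotype. In flies the genes of the U6 class are transcribed by RNA polymerase III and those of U1, U2, U4 and U5 by RNA polymerase II. Both kinds depend on a proximal sequence element read by the SNAP complex, and the polymerase II transcripts are cut at their 3' ends by the Integrator complex. Lilli is the scaffold of the super elongation complex, and a related complex without it, the little elongation complex, is known to act at snRNA genes.

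The genes fall into 12 classes by their RNA. There were 5 U1, 6 U2, 3 U4, 7 U5 and 3 U6 genes, 2 7SK genes, and 1 gene each for U7, U11, U12, U4atac, U6atac and LU, a gene with no role given here. Copies of a class were often nearly identical. The 5 U1 genes were 98.2 to 100% identical over the transcribed part, the 6 U2 genes 98.4 to 100%, and the 3 U6 genes were identical. The U4 genes shared 73.8 to 94.4% and the U5 genes 78.3 to 96.1% of their letters, and the pair of 7SK genes 49.7%. Over the 100 bp before the TSS, the U1 genes were 59.6 to 67.6% identical and the U6 genes 59.4 to 63.1%, so these copies differed more there than in the transcribed part. The U2 genes were 52.9 to 90% identical over the same stretch, the U4 genes 53.2 to 57.5%, the U5 genes 50.9 to 81.7% and the 7SK genes 50%. The transcribed starts of U1 and U2 are shown because they carry the letters that meet the intron, with the 60 first bases of each read from the RefSeq dm6 genome. Capitals mark the letters of U1 that pair with the 5' splice site and those of U2 that pair with the branch point.
snRNA:U1:95Ca (chr3R:23859571-23859630, minus strand): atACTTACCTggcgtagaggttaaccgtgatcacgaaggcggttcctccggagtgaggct
snRNA:U2:34ABb (chr2L:13215839-13215898, plus strand): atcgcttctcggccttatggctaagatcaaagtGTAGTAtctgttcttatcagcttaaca

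All but 1 of the genes shared a block of sequence in front of the TSS. The 8-letter word ATTCCCAA lay between 75 and 35 bp before the TSS, in the direction of transcription, in 26 of the 32 genes and in 6 of 13945 protein-coding promoters (0.0430%). The majority letters of the 21-base block around it were TAATTCCCAACTGGTTCTGGC. Both were drawn from these same genes: the word as the one most of them held, and the majority letters from the 26 that held it. The contrast with other promoters is therefore a description. Over the 31 genes other than 7SKb, 12 to 21 of the 21 letters matched, with a median of 18, and the block began 67 to 58 bp before the TSS. For all genes, the best match was sought from 75 bp before the TSS up to the TSS. At protein-coding promoters it had a median of 10 letters and at most 16, and 10.1% of these promoters reached 12 letters or more. The letters from 70 to 16 bp before the TSS (dm6, 5' to 3' on the strand of the gene, from the RefSeq genome) are shown for copies with and without an optimal peak, with the best-matching block in capitals.
snRNA:U1:95Ca (chr3R:23859646-23859700, minus strand): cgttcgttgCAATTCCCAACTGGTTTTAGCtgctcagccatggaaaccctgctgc
snRNA:U1:21D (chr2L:901670-901724, minus strand): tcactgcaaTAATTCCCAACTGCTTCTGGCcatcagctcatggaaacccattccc
snRNA:U1:82Eb (chr3R:4948112-4948166, minus strand): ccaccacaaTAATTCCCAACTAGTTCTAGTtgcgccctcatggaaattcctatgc
snRNA:U1:95Cb (chr3R:23827800-23827854, plus strand): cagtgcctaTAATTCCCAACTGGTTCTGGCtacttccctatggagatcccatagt
snRNA:U1:95Cc (chr3R:23826264-23826318, plus strand): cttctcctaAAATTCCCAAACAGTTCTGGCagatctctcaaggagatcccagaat
snRNA:U2:34ABb (chr2L:13215769-13215823, plus strand): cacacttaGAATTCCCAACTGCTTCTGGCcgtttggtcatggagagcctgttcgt
snRNA:U2:34ABa (chr2L:13212132-13212186, minus strand): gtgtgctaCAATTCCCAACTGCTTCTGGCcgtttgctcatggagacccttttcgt
snRNA:U2:34ABc (chr2L:13244577-13244631, minus strand): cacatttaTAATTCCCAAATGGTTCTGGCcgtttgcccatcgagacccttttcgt
snRNA:U4:39B (chr2L:21215194-21215248, minus strand): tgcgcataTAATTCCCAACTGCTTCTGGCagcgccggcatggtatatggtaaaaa
snRNA:U5:63BC (chr3L:3090731-3090785, plus strand): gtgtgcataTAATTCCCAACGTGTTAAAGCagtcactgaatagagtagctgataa
snRNA:U5:35D (chr2L:15751698-15751752, minus strand): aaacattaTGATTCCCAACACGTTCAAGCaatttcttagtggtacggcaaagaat
snRNA:U6:96Ab (chr3R:24556622-24556676, plus strand): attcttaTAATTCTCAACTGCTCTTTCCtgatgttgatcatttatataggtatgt
snRNA:U6:96Ac (chr3R:24557145-24557199, plus strand): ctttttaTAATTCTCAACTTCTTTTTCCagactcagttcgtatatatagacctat
snRNA:U6:96Aa (chr3R:24556018-24556072, plus strand): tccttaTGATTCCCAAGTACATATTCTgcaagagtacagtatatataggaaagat
snRNA:U6atac (chr2L:8389654-8389708, plus strand): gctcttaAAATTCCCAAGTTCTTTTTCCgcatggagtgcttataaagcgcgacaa
snRNA:7SKa (chr3R:7475012-7475066, minus strand): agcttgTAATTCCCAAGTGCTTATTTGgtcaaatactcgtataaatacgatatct
snRNA:7SKb (chr3R:23432799-23432853, plus strand): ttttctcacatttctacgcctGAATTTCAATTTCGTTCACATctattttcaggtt

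The block did not separate genes with an optimal peak from those without. Its median match was 18 letters at the 10 genes with a peak and 17.5 at the 22 without, and the perfect block belonged to snRNA:U1:95Cb, which had no optimal peak. The shorter core TTCCCAA, on either strand within 100 bp before the TSS, was present in 8 of the 10 and in 18 of the 22. It occurred in 1.74% of protein-coding, 2.76% of tRNA and 2.23% of snoRNA promoters. A TATA between 38 and 18 bp before the TSS was present at 8 genes, among them all 3 U6 genes, U6atac and 7SKa, and also U4:39B, U11 and U5:14B. Over those same 100 bp, searched on both strands, no snRNA gene held TATCGATA, GGTCACACT or CAGCTG, which 6.20%, 2.22% and 7.55% of protein-coding promoters held. GAGAG was found at 3 of the 32 snRNA genes (9.38%) against 13.2% of protein-coding promoters, and TATAAA at 5 (15.6%) against 20.1%. From 250 bp before the TSS to 49 bp after it, the shares were close. They were 28.1% and 29.7% for GAGAG, and 46.9% and 45.8% for TATAAA, at snRNA and protein-coding genes.

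Lilli peaks were about as frequent at snRNA genes as at protein-coding genes. An optimal summit lay within 500 bp of the TSS of 10 of the 32 snRNA genes, or 31.25% (95% Wilson interval 17.95 to 48.6%, which covers counting error only). The same was true of 31.3% of protein-coding genes, measured at any of their TSSs, and of 26.2% of all genes that are not snRNA genes. Among other short noncoding RNA genes the share was 8.62% for the 290 tRNA genes and 11.5% for the 269 snoRNA genes. In the pooled list of 30000 peaks, which includes background by design, 18 snRNA genes had a peak (56.25%) against 55% of protein-coding genes. There the tRNA genes reached 60% and the snoRNA genes 43.1%, so the gap to the tRNA genes was not seen in that list. Among the 6970 strongest peaks of replicates 1, 2 and 3, the snRNA genes with a peak numbered 10, 8 and 11 (mean 9.67 ± 1.53 SD, n = 3), against 30.5%, 31.7% and 30.1% of protein-coding genes. The tRNA genes with such a peak numbered 36, 31 and 24 of 290. The mean share was 30.2% for snRNA genes and 10.5% for tRNA genes, so the gap was present in these peaks too. The same 8 snRNA genes were present in every replicate: U1:21D, U1:95Ca, U2:34ABb, U4:39B, U5:63BC, U6:96Ab, U6:96Ac and 7SKa.

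**Figure D1:**
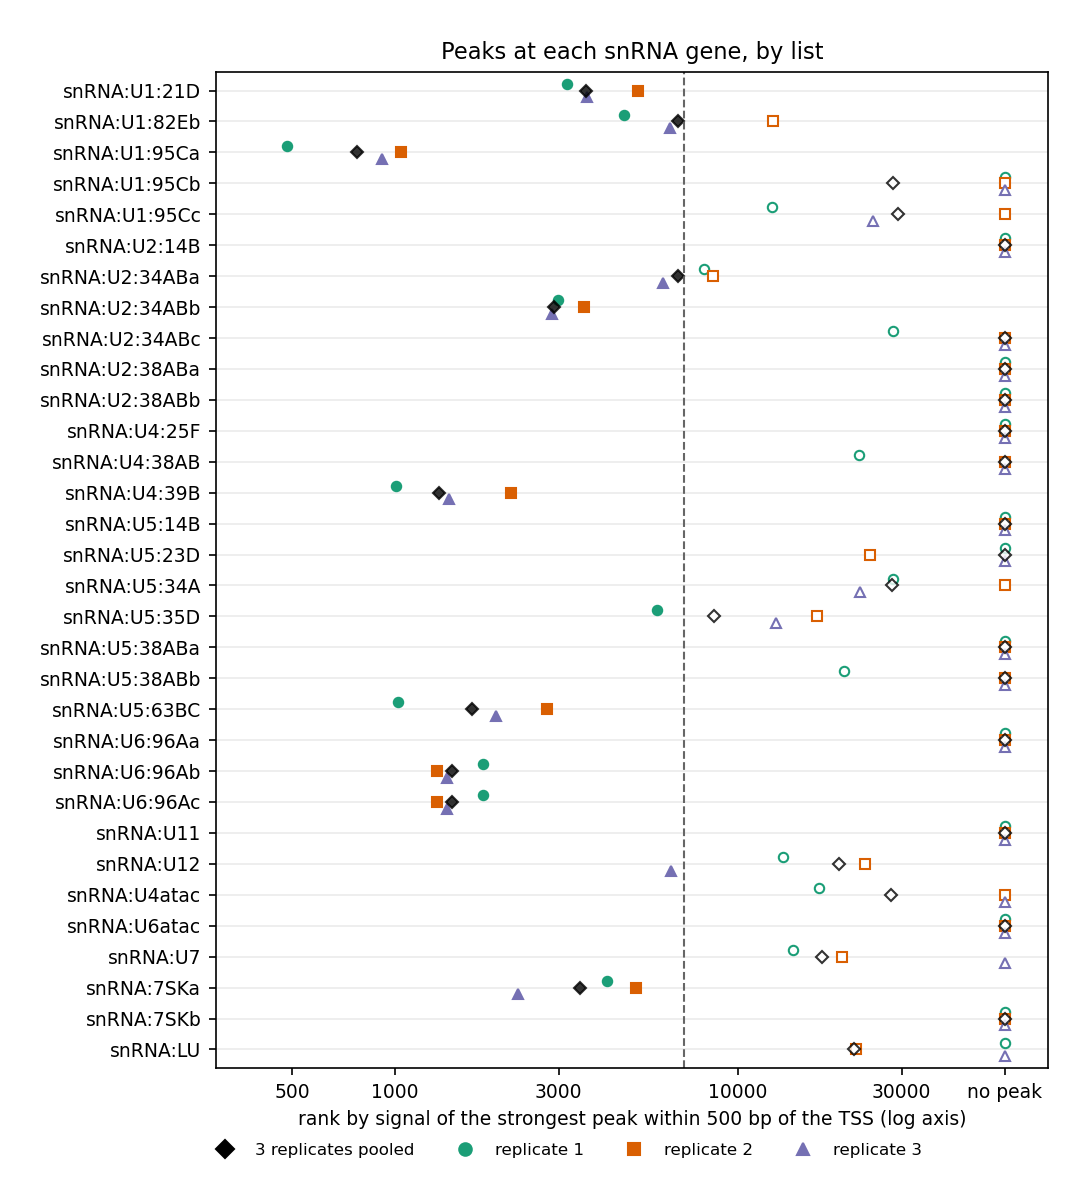
Rank by signal of the strongest peak within 500 bp of the TSS of each of the 32 snRNA genes (log axis, 1 is the strongest) in the pooled list and in each replicate, with genes without a peak at the right edge. Filled symbols left of the dashed line are among the 6970 strongest of their list. U1:95Ca has the best rank in every list, from 484 to 1036, and 10 genes have no peak in any list.

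The peaks were of middling strength for this experiment. The 10 genes held 11 distinct optimal peaks, since U6:96Ab and U6:96Ac shared 1 peak while U5:63BC and 7SKa had 2 each. The authors' signal per peak, which can be compared only within a list, ran from 116 to 533 with a median of 204, and its median over all optimal peaks was 202. Their ranks among the 6970 ran from 771 to 6688 with a median of 3448. Of the 11 peaks, 9 had a summit within 100 bp in all 3 replicate lists, as had 90.01% of all optimal peaks, and 6 were among the strongest 6970 of all 3 replicates, as were 63.5% of all. Every one of the 11 summits lay nearer to the TSS of an snRNA gene than to that of any other gene. The closest other TSS was that of CG15482, 211 bp from the summit at U2:34ABa.

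The U1 genes, whose RNA recognises the 5' splice site, held the strongest peak of the family. At snRNA:U1:95Ca (TSS at chr3R position 23859630, minus strand) the optimal peak ranked 771 with a signal of 533, and its strongest peaks in replicates 1, 2 and 3 ranked 484, 1036 and 917. Their summits lay at -1 bp from the TSS in replicate 1 and 121 and 71 bp after it in replicates 2 and 3, so the rank was high in all 3 while the position was not shared. At snRNA:U1:21D the optimal peak ranked 3600 with a signal of 197, and the replicates ranked it 3160, 5100 and 3627. At snRNA:U1:82Eb the optimal peak ranked 6688 with a signal of 116, near the lowest optimal signal of 112. Replicates 1 and 3 ranked it 4658 and 6342, while replicate 2 had only a peak of rank 12658 there, so this gene stands just inside the optimal list. The other U1 genes, U1:95Cb and U1:95Cc, had pooled peaks of rank 28402 and 29349, the second 11 bp from the TSS of lncRNA:CR43285. In no replicate was either among the strongest, and U1:95Cb had no peak in any replicate list.

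Among the 6 U2 genes, whose RNA pairs with the branch point, U2:34ABb and U2:34ABa had optimal peaks. The peak of snRNA:U2:34ABb ranked 2914 with a signal of 232, and the replicates ranked it 2987, 3545 and 2869, a narrow spread. The peak of snRNA:U2:34ABa ranked 6685 with a signal of 116, and the best ranks there in the replicates were 7974, 8470 and 6058. The peak of rank 8470 in replicate 2 lay 194 bp after the TSS of U2:34ABa, but 108 bp from that of CG15482. The peak of replicate 2 within 100 bp of the optimal summit ranked 15541. U2:34ABa thus had a peak among the strongest in replicate 3 alone. U2:34ABc had a peak of rank 28279 in replicate 1 only, which it shared with the neighbouring U5:34A, and U2:14B, U2:38ABa and U2:38ABb had none in any list.

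U4 and U5 join U6 in the tri-snRNP, the particle that brings the catalytic RNAs to the intron. The peak of snRNA:U4:39B ranked 1343 with a signal of 387, and the replicates ranked it 1008, 2181 and 1435. Its summits lay 44, 67 and 46 bp after the TSS in replicates 1, 2 and 3, within 23 bp of the optimal summit at 44 bp. U4:25F had no peak in any list, and U4:38AB had only one of rank 22515 in replicate 1. Of the 7 U5 genes, snRNA:U5:63BC alone had optimal peaks. The stronger ranked 1679 with a signal of 337, 112 bp after the TSS, and ranked 1020, 2771 and 1963 in the replicates. The weaker, 317 bp after the TSS and inside the 3' UTR of the neighbouring gene Cht7, ranked 5147, and in the replicates 4181, 3802 and 9398.

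snRNA:U5:35D had the best-ranked pooled peak among the genes without an optimal one. That peak lay 302 bp after its TSS, but as close to the TSS of the protein-coding gene ND-B17, and cannot be assigned to either gene. It ranked 8538 in the pooled list with a signal of 92.3, and it ranked 5799, 16962 and 12902 in replicates 1, 2 and 3, so it was among the strongest in replicate 1 only. A further optimal peak of rank 2304 lay 502 bp after the TSS, just beyond the window, and 102 bp from that of ND-B17. U5:34A had a pooled peak of rank 28217. U5:23D had a single peak, in replicate 2, and U5:38ABb a single peak, in replicate 1, while U5:14B and U5:38ABa had none.

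The U6 genes, transcribed by RNA polymerase III, lie side by side at 96A and shared their signal. A single optimal peak of rank 1460 and signal 365 lay at -114 bp, before the TSS of snRNA:U6:96Ac, and 409 bp after the TSS of snRNA:U6:96Ab. It ranked 1799, 1323 and 1417 in replicates 1, 2 and 3, with summits at -112, -114 and -134 bp from the TSS of U6:96Ac. Rank and position were thus close in the 3 replicates, and each summit lay nearer to U6:96Ac than to U6:96Ab. snRNA:U6:96Aa, identical to them in its transcribed part, had no peak in any list within 500 bp.

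7SK RNA is also a polymerase III transcript. snRNA:7SKa, 444 bp long, had optimal peaks 290 bp after the TSS (rank 3448, signal 204) and 89 bp after it (rank 5837, signal 131). The first ranked 4151, 5029 and 2274 in the replicates and was among the strongest in all 3. The second ranked 13318, 27312 and 15435 there and was among the strongest in none. snRNA:7SKb had no peak in any list. Of the 6 genes transcribed by polymerase III (U6, U6atac and 7SK), 3 thus had an optimal peak.

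The minor spliceosome genes had no optimal peak within 500 bp: 0 of 4, against 9 of 24 for U1, U2, U4, U5 and U6. With 4 genes, the 95% Wilson interval of that share reaches 48.99%. snRNA:U12 had a peak of pooled rank 19747, and in replicates 1, 2 and 3 peaks of rank 13499, 23438 and 6389, the last among the strongest. The summits lay at -469 bp from its TSS in the pooled list and at -285, -310 and 139 bp in the replicates. The position was thus not shared, and replicate 3 alone had a downstream peak. snRNA:U4atac had one of pooled rank 27857, and U11 and U6atac had none in any list, although an optimal peak of rank 1461 lay 912 bp after the TSS of U11, and 156 bp from a TSS of Fie, the gene that contains it. U7 had a pooled peak of rank 17521, with a summit 23 bp after its TSS, and LU one of rank 21840. In all, 10 genes had no peak in any list: U2:14B, U2:38ABa, U2:38ABb, U4:25F, U5:14B, U5:38ABa, U6:96Aa, U11, U6atac and 7SKb.

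**Figure D2:**
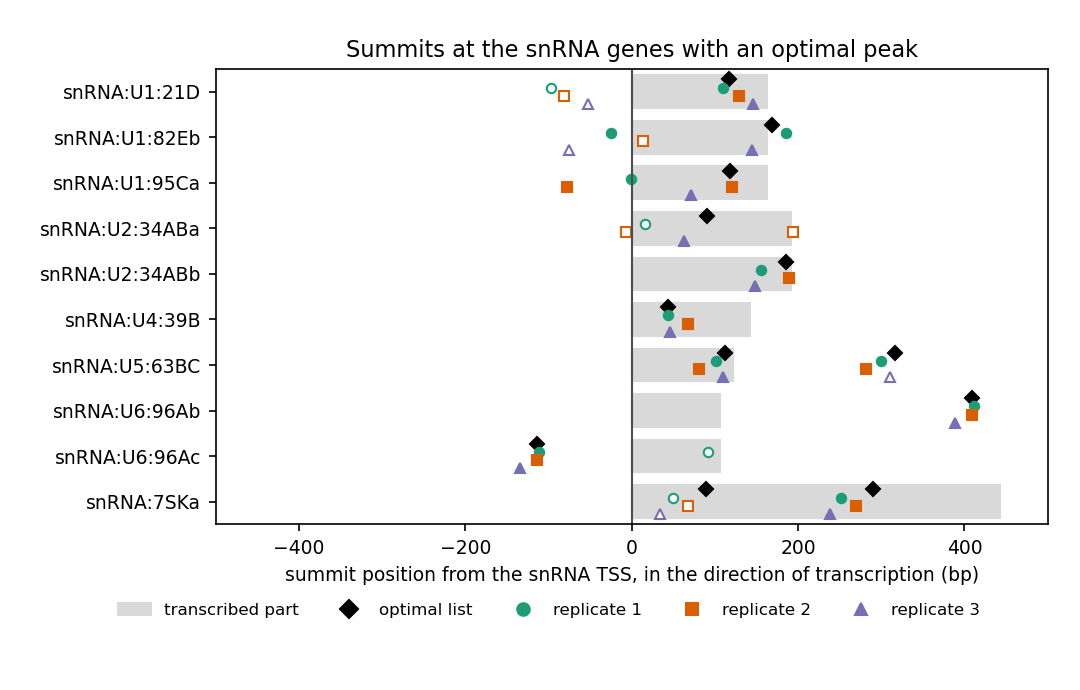
Summit positions at the 10 snRNA genes with an optimal peak, in bp from the TSS in the direction of transcription, with the transcribed part in grey. Diamonds are optimal summits and the other symbols those of each replicate, filled where among the 6970 strongest of that list; 8 of the 11 distinct summits fall within the transcribed part.

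Most summits lay downstream of the TSS, mainly over the short transcribed part. The optimal summit nearest to the TSS was downstream in 9 of the 10 genes (90%, 95% Wilson interval 59.6 to 98.2%), with a median of 114.5 bp after the TSS and quartiles of 89.5 and 156.25 bp. The 9 include U6:96Ab, through the peak that lies before the TSS of U6:96Ac. At the 4371 protein-coding genes with an optimal peak the nearest summit had a median position of -97 bp, before the TSS, and was downstream in 16.7% (15.6 to 17.9%). Protein-coding genes with 1 TSS and no other gene's TSS within 1000 bp gave 18.7% downstream. The tRNA genes gave 40% downstream with a median position of -88 bp, and the snoRNA genes 12.9% with a median of -247 bp. These intervals treat genes as independent, which U6:96Ab and U6:96Ac with their shared peak are not. In the pooled list the nearest summit was downstream in 13 of 18 snRNA genes (72.2%), against 30.3% of protein-coding genes.

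The replicates each showed the same side. Among the strongest peaks the nearest summit was downstream in 7 of 10 genes in replicate 1, in 6 of 8 in replicate 2 and in 10 of 11 in replicate 3. Each of these downstream counts includes U6:96Ab, through the peak that lies before the TSS of U6:96Ac. That of replicate 1 also includes U5:35D, whose peak is as close to the TSS of ND-B17. The medians were 105.5, 105 and 139 bp after the TSS (mean 116.5 ± 19.5 SD, n = 3). Of the 11 optimal summits, 8 lay in the transcribed part, 2 past the 3' end (U1:82Eb and the weaker one at U5:63BC), and 1 before the TSS, at U6:96Ac. The 51 bp around them had a median GC content of 45.1%, from 35.3% at U5:63BC to 72.5% at the stronger 7SKa summit, against a median of 37.3% at the 3865 optimal summits at promoters.

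**Figure D3:**
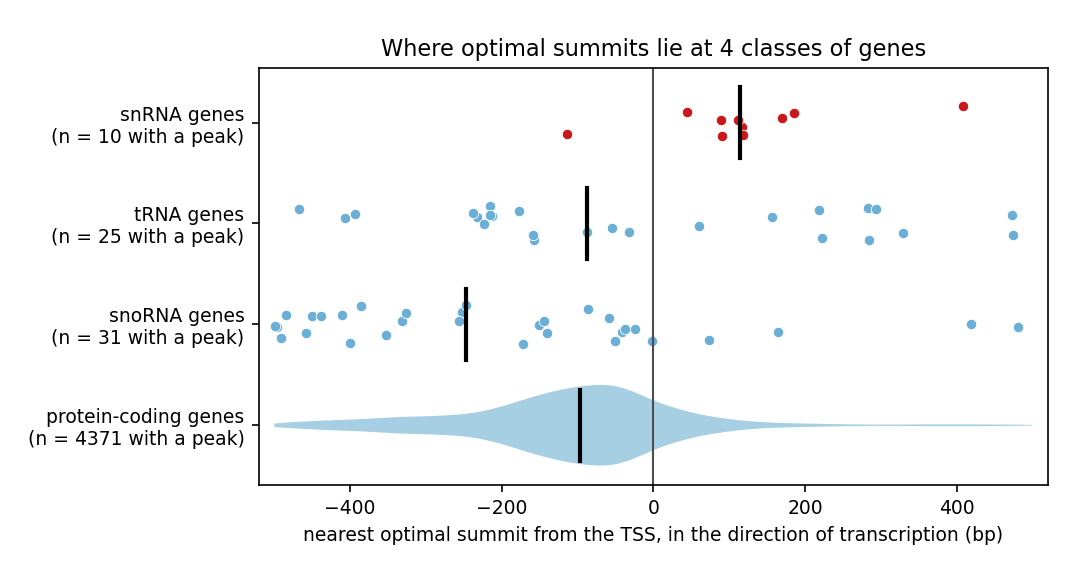
Distance of the nearest optimal summit from the TSS, in bp in the direction of transcription, for genes of 4 classes with an optimal peak, as points (snRNA, tRNA, snoRNA) or a density (protein-coding), with a bar at each median. The snRNA median lies 114.5 bp after the TSS and the protein-coding median at -97 bp, before it.

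The letters at the summits show how different the places are that carry a peak. The 41 bases around each of 6 optimal summits are given on the strand of the gene (dm6, RefSeq genome) with the summit base in capitals. The U1:95Ca and U1:21D summits, on different chromosome arms, lay 1 bp apart in the same sequence, 118 and 117 bp into the 164-bp gene. The optimal peaks at 7SKa and U6:96Ac held only 31-base words that occur once in the genome.
snRNA:U1:95Ca (chr3R:23859492-23859532, minus strand): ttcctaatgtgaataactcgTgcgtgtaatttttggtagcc
snRNA:U1:21D (chr2L:901517-901557, minus strand): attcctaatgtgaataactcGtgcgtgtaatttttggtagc
snRNA:U4:39B (chr2L:21215114-21215154, minus strand): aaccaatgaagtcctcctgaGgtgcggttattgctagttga
snRNA:U5:63BC (chr3L:3090893-3090933, plus strand): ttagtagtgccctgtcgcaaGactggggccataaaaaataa
snRNA:7SKa (chr3R:7474686-7474726, minus strand): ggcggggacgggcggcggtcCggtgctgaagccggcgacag
snRNA:U6:96Ac (chr3R:24557081-24557121, plus strand): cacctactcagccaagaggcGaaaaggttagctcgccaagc

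Identical copies could differ in their peaks. The transcribed parts of U1:21D, U1:95Ca and U1:95Cb were identical, and the first 2 had optimal peaks while U1:95Cb had none. U2:34ABb and U2:34ABc were also identical, and only U2:34ABb had one. Of the 3 identical U6 genes, U6:96Aa had no peak. Reads from such copies can fit more than 1 place, and how the authors placed them is not given in the sources used here. At U1:21D, U1:95Ca and U2:34ABa none of the 31-base words in the 51 bp around the summit occurred only once in the genome, so their summits cannot be given to a single copy with certainty.

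Uniqueness of the sequence was measured at every gene as the share of such words within 500 bp of the TSS that occur once in the genome. It ran from 45.4 to 100% with a median of 92.0%. The median was 85.4% at the 10 genes with an optimal peak, 96.8% at the 8 with a pooled peak only and 92.8% at the 14 with neither. Only U2:34ABc, U2:38ABa and U2:38ABb were under 50% (46.9, 45.4 and 48.9%), and none of these had a pooled peak. Without these 3 genes the share with an optimal peak was 10 of 29. Of the 9 genes whose window was fully unique, 7SKa alone had an optimal peak and 5 had a pooled one. Of the 9 genes whose transcribed part held no unique word at all, 5 had an optimal peak. The part of repeated sequence in these counts was not tested beyond that.

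**Figure D4:**
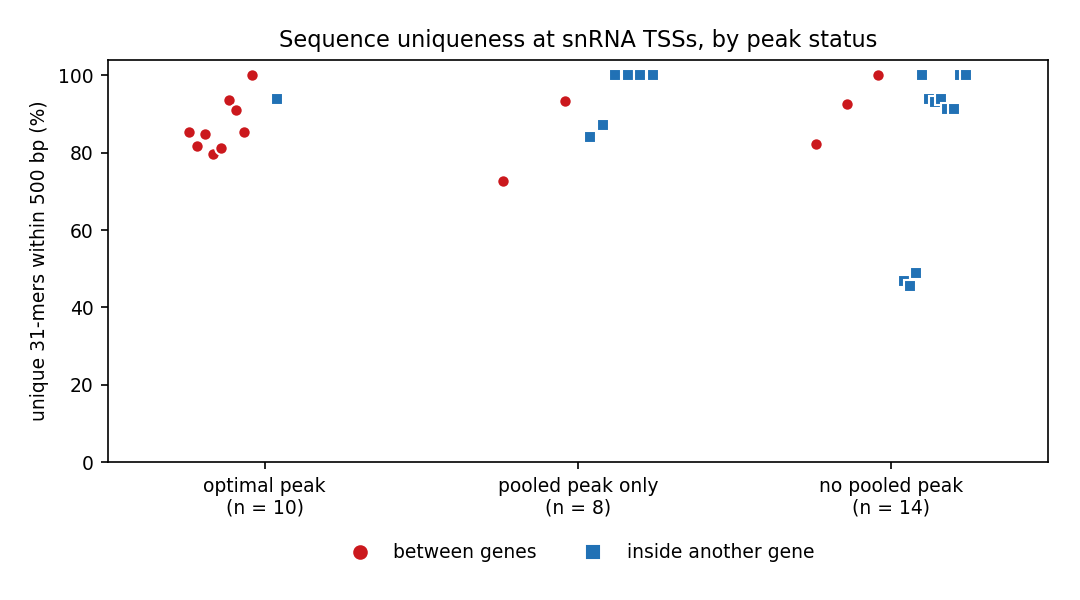
Share of 31-base words within 500 bp of each snRNA TSS that occur once in the genome (%), for genes with an optimal peak, with a pooled peak only and with neither, coloured by whether another gene covers the TSS. Genes with an optimal peak lie between 79.7 and 100%, and 9 of those 10 lie between genes.

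The genes with peaks mostly stood outside other genes. Of the 14 snRNA genes whose TSS no other gene covers, 9 had an optimal peak (64.3%, 95% Wilson interval 38.8 to 83.7%), and 11 a pooled one. Of the 18 inside another gene, 1 had an optimal peak (5.56%, 0.988 to 25.8%), and 7 a pooled one. In replicates 1, 2 and 3 the strongest peaks marked 9, 7 and 9 of the 14 and 1, 1 and 2 of the 18. This division was chosen after the values were seen and is a description. Measured from the 5' end of each gene, protein-coding genes gave 30.6% between genes and 22.4% inside another gene, and tRNA genes 8.39% and 8.89%. Of the snoRNA genes, 6 of the 12 between genes had an optimal peak (50%) and 9.73% of the 257 inside another gene.

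The exception was U4:39B, in an intron of Atg18b, an autophagy gene. A total of 16 of the 18 lay in introns of protein-coding genes and the other 2 in exons of noncoding RNA genes, U2:34ABc in asRNA:CR45330 and U4:25F in lncRNA:CR44794. The introns of sick held 5 of them, U4:38AB, U5:38ABa, U5:38ABb, U2:38ABa and U2:38ABb, with no optimal or pooled peak. U1:95Cb and U1:95Cc lay in CG34355, LU and U5:23D in FASN2, and U11, U12, U4atac, U6:96Aa, U7 and 7SKb in Fie, Baldspot, cno, Esyt2, Eip63E and CG4374. Of the 6 snRNA genes with the TSS of another class of gene within 500 bp, 3 had an optimal peak, and of the 26 without, 7 had one.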

How the data were processed

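Lilli-eGFP was mapped by anti-GFP ChIP-seq in 3 samples of whole embryos, numbered as the labels number their biological replicates. Per the file headers (short texts deposited with the lists), a replicate's peaks were made from its own alignment with a control alignment, pooled peaks from all 3 alignments, and optimal peaks by filtering on the irreproducible discovery rate. Which aligner and which peak caller made them is not given in the sources used here. The signal of each peak is the authors' value, made against the control and compared here only within a list. The deposited -log10 q-values were not used for ranking. Read depth is unknown from peak lists. The optimal peaks proved identical to the 6970 strongest pooled peaks, and the same number of strongest peaks was taken from each replicate's 30000.

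Peaks were ranked by signal, and a gene was counted when a summit lay within 500 bp of a TSS. Positions are 1-based on dm6, with Ensembl release 115 genes and the RefSeq genome of the same assembly, within whose arm lengths all peaks fell. Lists on dm3 were not used. With 1 group no test was made: counts stand beside the same counts over other genes, with 95% Wilson intervals for counting error. All 32 genes are accounted for, and those with an optimal peak are named with their values in every list. Replicates were left out by keeping the optimal peaks that had a summit within 100 bp among the 6970 strongest peaks of both others, which is also a stricter set. The genes and lists were chosen with earlier results of these data known. The assignment of summits was tested on simulated data. Python 3.11.15, numpy 2.4.6, scipy 1.17.1, Biopython 1.88 and matplotlib 3.10.9 were used.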

Additional observations from a re-analysis of the deposited data

How the results depend on the processing

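Of 63 alternative values, 54 stayed within 1.5 times the reported count (for the summit position, within 1 SD between replicates) and 9 moved further. Counts cannot change sign, and the summit position, which can, did not. Leaving out each replicate in turn gave 7 to 8 snRNA genes with an optimal peak in place of 10 and 3384 to 3560 protein-coding genes in place of 4371. It gave 5 to 6 without another class's TSS nearby, 6 to 7 between genes, 1 inside another gene and 6 to 7 with a downstream summit. The genes lost were among U1:82Eb, U1:95Ca and U2:34ABa. U1:95Ca, with the best rank, fails without replicate 2 or 3 because its summit in replicate 1 lies 119 bp from the optimal one, beyond the 100 bp allowed.

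Counting only TSSs inside a peak lowered the pooled count from 18 to 10, that of replicate 2 from 8 to 5, and that without another class's TSS from 7 to 4. It took U5:63BC and both U6 genes from the optimal count, leaving 7. Keeping the stronger 50% of the pooled peaks gave 11 genes, and of the optimal peaks 7 snRNA genes and 2677 protein-coding genes. Whole replicate lists gave 19 genes in replicate 1 and 15 in replicate 2. A window of 1000 bp gave 12 genes, with U5:35D and U11 gained, which raised the count inside another gene to 2, and a window of 250 bp gave 9. The median summit position over the 18 pooled genes was 92 bp after the TSS in place of 114.5 bp. The alternatives on genes between or inside others and on downstream summits were chosen after seeing the data.

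No paired analysis was possible because there is 1 group. The lists hold no reads, so signal below their weakest peaks was not measured at genes without one, and whole embryos of mixed age average over cells and stages.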

Other observations

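Protein genes of the complexes that serve snRNA genes, and lilli itself, were read in the same peak lists. These genes were listed with earlier results of these data known. Lilli is the precipitated protein and is not part of the little elongation complex. Of 7 annotated genes, 6 for the SNAP and little elongation complexes and lilli itself, 3 had an optimal peak within 500 bp of a TSS, beside 31.3% of all protein-coding genes. Ell, also listed, is not analysed here. Those with an optimal peak were Pbp95 (rank 1487) and Pbp45 (rank 5342), subunits of the SNAP complex, and lilli itself (rank 328). All 3 had a peak among the strongest of every replicate. Their optimal summits lay at -481, 15 and -153 bp from the nearest TSS of the gene. That of Pbp95 was close to the edge of the 500 bp window, and the distance to TSSs of other genes is not given here. Eaf had a pooled peak of rank 7018, just outside the optimal list, Ice2 one of rank 9777 and Pbp49 one of rank 10524, and Ice1 had none in the pooled list although replicates 1 and 3 each had one among their strongest.

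Of 11 Integrator genes matched in the annotation (14 listed), 6 had an optimal peak, beside the same 31.3%, and the same 6 were among the strongest of every replicate. IntS6, IntS9 and IntS11 ranked 305, 466 and 495, ahead of every snRNA gene, and IntS10, IntS4 and IntS8 ranked 1009, 1608 and 3634. IntS12 and IntS14 had pooled peaks of rank 11880 and 27328, and IntS1, IntS2 and IntS3 had none. The summits of the 6 lay from -394 to -54 bp, before the nearest TSS, on the other side from most summits at snRNA genes.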
